A study of Mus musculus with 6 samples.

Results

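The conjugation enzymes examined here are the glutathione S-transferases (Gst), their microsomal relatives (Mgst), the sulfotransferases (Sult), the UDP-glucuronosyltransferases (Ugt) and the epoxide hydrolases (Ephx). The families were chosen with earlier results of these data known, and the members by gene symbol. In all, 69 of the 55331 genes in the expression table matched. Of these, 40 had enough signal to be tested by the authors, 12 were above 0 but untested, and 17 were listed at 0 in both groups. RNA came from small intestinal crypt cells of C57BL/6 mice aged 60 days, 3 libraries per genotype. WT mice were Ptbp1f/f, with loxP-flanked alleles and no Cre. PTBP1_KO mice were Ptbp1f/f;Vil-creER+/-, in which a tamoxifen-inducible Cre is driven by villin sequence and acts in intestinal epithelium. Both genotypes received 2 daily injections of tamoxifen at 100 mg/kg, and crypts were taken 20 h after injection 2, released in 2 mM EDTA and passed through a 70 µm strainer. The table gives 1 FPKM value (fragments scaled to transcript length and library size) for each group, so group levels carry no spread, and nothing in the labels says how many animals each library represents. The p-values and q-values (p-values adjusted for all tested genes) are the authors' own. They rest on these libraries alone, whose spread may be technical.

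Conjugation is the second step of detoxification, in which a foreign or endogenous compound, often already oxidised, is joined to a polar group and made easier to export. Glutathione transferases attach glutathione to electrophiles, sulfotransferases attach sulfate from the donor PAPS, glucuronosyltransferases attach glucuronic acid from UDP-glucuronic acid, and epoxide hydrolases open reactive epoxides with water. The intestinal epithelium is a major site of these reactions for swallowed compounds, and Ptbp1 encodes a repressor of alternative exons that binds pyrimidine-rich RNA.

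Ptbp1 itself was listed at 230.0 FPKM in WT against 122.8 in PTBP1_KO, and had q = 0.0125 in the authors' deposited table, the lowest q listed there. That q goes with the smallest Cuffdiff p, 5e-05, which 62 genes share, so it does not rank Ptbp1 among them. Markers of intestinal and other cell types were checked in the same table. Enterocyte markers were present at a summed 13402 FPKM in WT and 13469 in PTBP1_KO, with 0 of 11 tested genes called. Stem cell markers summed to 797 FPKM in WT and 745 in PTBP1_KO, with 0 of 8 called. Enterocyte RNA was thus plentiful, and the levels given here may not be those of crypt cells alone. Immune markers summed to 905 and 1099 FPKM, most of it from Cd74 at 790 and 898. Of the 12, 11 were higher in value in PTBP1_KO, 8 of them with an unadjusted p below 0.05. The 3 called higher were Gzma, Gzmb and Cd8a, and none of the 12 was at 0. Goblet cell markers gave 0 of 8 called genes, and enteroendocrine markers 1 of 10, Gcg, at 35.6 and 60.4 FPKM. Stromal and muscle markers summed to 7.12 and 8.04 FPKM, with none of 6 tested called and Col1a1, Col1a2 and Col3a1, all under 1 FPKM, lower in value at an unadjusted p below 0.05. Of 8 liver and pancreas markers, Pnlip and Prss2 were listed at 0, Cela1 was at 6.07 and 6.72 FPKM and Ttr at 4.16 and 3.22, and none of the 3 tested was called.

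Most members were listed at much the same level in both genotypes, and 2 of the 40 tested members were called at q below 0.05. Ephx1, encoding the microsomal epoxide hydrolase, was higher in PTBP1_KO, and Sult6b2, encoding a sulfotransferase, was lower. This is 5% of tested members, where 83 of 15460 tested genes (0.537%) were called. Because the families were chosen with earlier results known, these shares are a description and not a test. Of the tested genes, 60 (0.388%) were called higher and 23 (0.149%) lower. At an unadjusted p below 0.05 there were 5 members (12.5%, against 4.35% of all tested genes), namely Ephx1, Gsta3 and Ugt2b5 with higher and Sult6b2 and Gstp3 with lower values in PTBP1_KO. Of the 40 tested members, 25 had a higher and 15 a lower value in PTBP1_KO, a share of 62.5% higher against 54.7% of all tested genes. The median log2((PTBP1_KO + 1)/(WT + 1)) was 0.06 over the members and 0.02 over all tested genes. Its median absolute size was 0.13 over the members and 0.10 over all tested genes.

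The 38 uncalled members had log2 fold changes from -0.42 to 0.78 in the authors' deposited table, and 33 of them lay within 0.3 of 0. The smallest q among the uncalled was 0.639, of Gsta3, and 37 had q above 0.99. Summed over all 69 members, expression was 2380 FPKM in WT and 2531 FPKM in PTBP1_KO, or 0.411% and 0.419% of all summed FPKM. The 5 members of highest level, Gsto1, Mgst2, Mgst1, Mgst3 and Gstp1, held 55.3% of that sum in WT and 56.8% in PTBP1_KO. In total 8 members were at 100 FPKM or more in both groups.

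**Figure D1:**
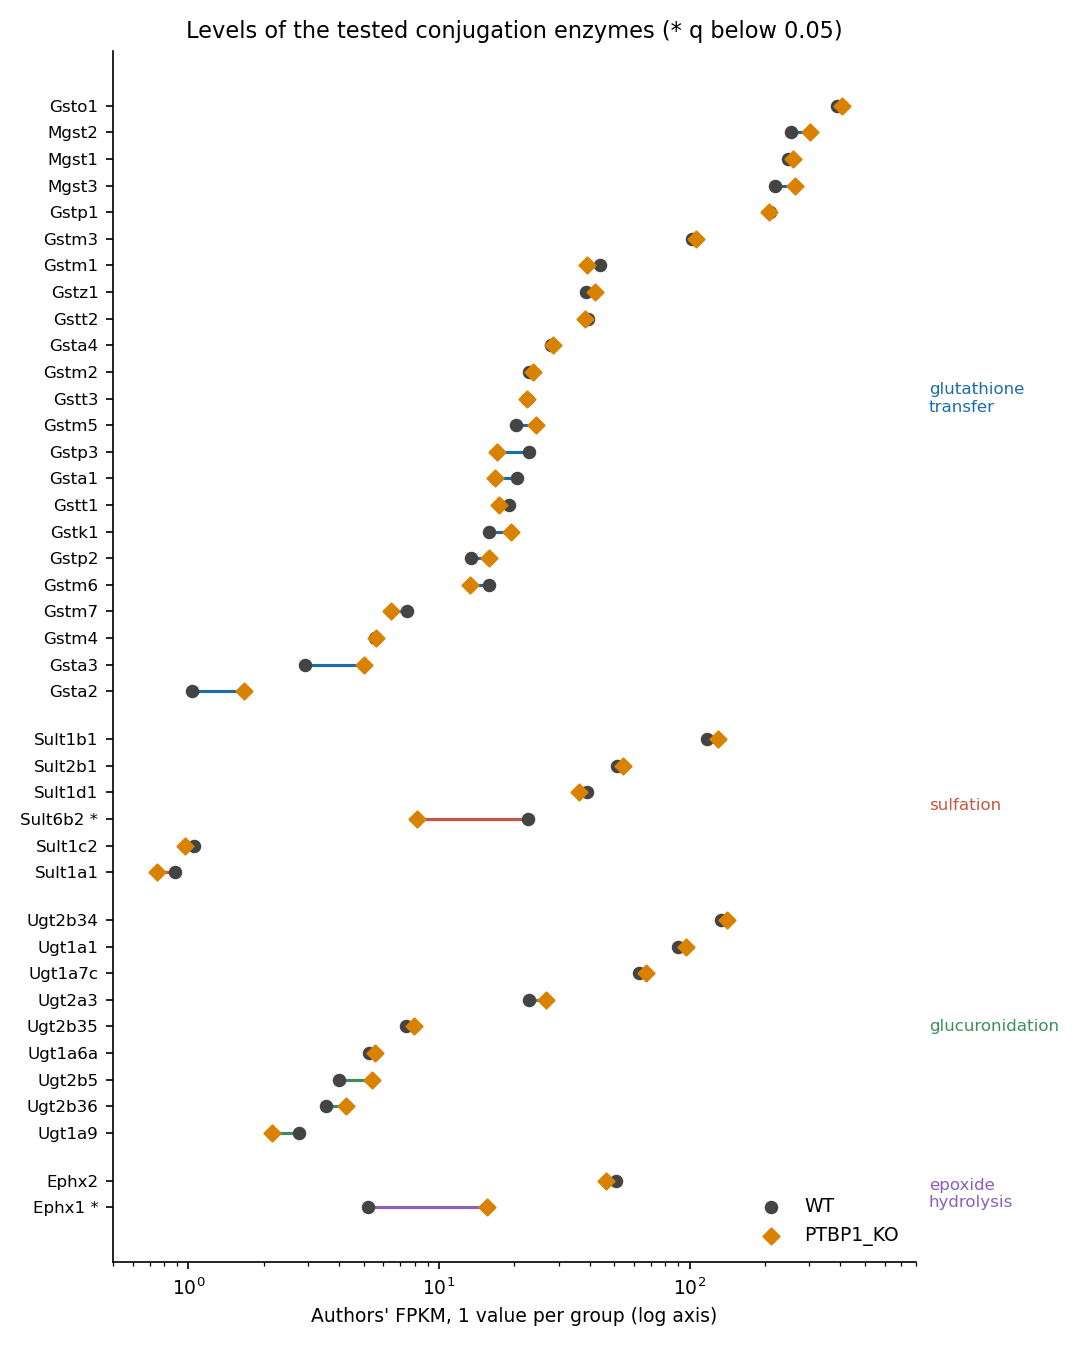
Level of each tested member (horizontal axis, FPKM on a log scale) in WT and PTBP1_KO, with members grouped by reaction and ordered by level, a star for q below 0.05 and each point the authors' single value for a group. Most pairs nearly coincide, whereas Ephx1 moves from 5.23 to 15.5 FPKM and Sult6b2 from 22.7 to 8.17 FPKM.

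The promoters of the 3 members with the lowest p-values are shown as the stretches before the RefSeq start sites. Each window holds the 250 bases before the start site from RefSeq on GRCm38.p6, written 5′ to 3′ on the gene's strand. The RefSeq start of Ephx1 lies inside the gene as GENCODE draws it, downstream of the outermost GENCODE start, and the Sult6b2 window overlaps the first bases of the GENCODE gene. Capitals mark 1 motif per window: TATAAA in Ephx1 at -214 from the start site, the octamer ATGCAAAT in Sult6b2 at -205, and a match to the antioxidant response element core TGACNNNGC in Gsta3 at -121.

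Ephx1 (chr1:181017570-181017819, minus strand): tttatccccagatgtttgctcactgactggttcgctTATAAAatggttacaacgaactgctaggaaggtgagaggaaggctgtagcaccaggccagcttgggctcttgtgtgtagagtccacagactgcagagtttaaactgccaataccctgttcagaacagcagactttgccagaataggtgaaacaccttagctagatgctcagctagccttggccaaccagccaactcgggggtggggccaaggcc

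Sult6b2 (chr6:142804467-142804716, minus strand): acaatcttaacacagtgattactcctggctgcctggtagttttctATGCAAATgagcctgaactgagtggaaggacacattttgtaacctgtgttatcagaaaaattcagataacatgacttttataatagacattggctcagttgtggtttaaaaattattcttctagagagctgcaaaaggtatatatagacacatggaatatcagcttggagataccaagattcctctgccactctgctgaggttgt

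Gsta3 (chr1:21240335-21240584, plus strand): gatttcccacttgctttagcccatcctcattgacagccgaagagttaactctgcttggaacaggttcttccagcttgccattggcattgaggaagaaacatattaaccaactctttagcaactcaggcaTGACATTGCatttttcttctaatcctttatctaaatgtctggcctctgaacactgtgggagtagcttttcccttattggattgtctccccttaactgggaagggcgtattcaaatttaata

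The motifs were searched on both strands in 32851 RefSeq windows, of which 74 belong to 61 of the 69 members. The antioxidant response element core, the site bound by Nrf2, lay in 4 of the 74 member windows (5.41%), those of Gsta3, Gstm5, Gstm7 and Mgst1, and in 10.2% of all windows. TATAAA lay in 14 member windows (18.9%) against 12.4% of all. The octamer, which POU factors bind, was chosen after the Sult6b2 sequence had been read. It lay in 3 member windows (4.05%), of Sult6b2, Ugt1a10 and Ugt1a9, and in 1.60% of all. The Ahr-related core GCGTG lay in 13 member windows (17.6%, against 28.2% of all) and the GC box GGGCGG in 19 (25.7%, against 32.7%). A match describes letters in these windows and not binding.

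Ephx1 (ENSMUSG00000038776.13, chr1:180976210-181020904, minus strand, GENCODE M21 on mm10) was at 5.23 FPKM in WT and 15.5 FPKM in PTBP1_KO, a 2.96-fold higher level. In the authors' deposited table the log2 fold change was 1.57, with p = 5e-05 and q = 0.0125. Counting only called genes that reached 5 FPKM in either genotype, it was the 3rd largest rise of 36. The neighbouring gene Tmem63a was at 17.1 and 17.6 FPKM with p = 0.809 in the authors' deposited table. Paneth cell markers had a summed level of 6691 FPKM in WT and 11316 in PTBP1_KO, with 3 of 8 called (Mmp7, Ang4 and Defa17) and none listed at 0, and their part in the Ephx1 result, or that of the immune markers, was not tested. The other epoxide hydrolase with substantial expression, soluble Ephx2, which acts on fatty acid epoxides, was at 50.8 and 46.6 FPKM, and the authors' deposited table gave p = 0.406. Ephx3 and Ephx4 were under 0.1 FPKM in both groups and untested. All 4 epoxide hydrolases together came to 56.1 FPKM in WT and 62.2 in PTBP1_KO.

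Reads in the splicing tables give the only view of single libraries. The tables hold a first and a second set of 3 libraries, and the genotype behind each set is not stated in the headers, so no direction by genotype is drawn from them. For the 167-nucleotide exon of Ephx1 at chr1:180993879-180994045, reads that include or skip it came to 276, 217 and 350 in the first set and 74, 115 and 86 in the second. Per 1000000 reads summed over the events of the skipped-exon table this is 8.41, 6.13 and 8.80 against 2.23, 3.57 and 2.31. The ranges of the sets do not overlap, and skipping reads were 0 or 1 in each library. Ephx1 was picked for its q-value in the same libraries, so this separation is no separate support.

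Among the sulfotransferases, 1 changed. Sult6b2 (ENSMUSG00000048473.15, chr6:142785204-142804502, minus strand) was at 22.7 FPKM in WT and 8.17 FPKM in PTBP1_KO, 35.9% of the WT level. In the authors' deposited table the log2 fold change was -1.48, with p = 5e-05 and q = 0.0125, the 3rd largest fall of 17 by the same count. Its neighbour Cmas was at 118 and 126 FPKM with p = 0.573 in the authors' deposited table. Tuft cell markers moved the same way: all 9 were lower in value in PTBP1_KO, 7 with p below 0.05 and 1, Sh2d6, called. Their summed level was 98.3 FPKM in WT and 63.5 in PTBP1_KO, 64.6% of the WT level, with none listed at 0. Pou2f3, the POU factor that defines tuft cells, was at 6.06 and 3.97 FPKM with q = 0.244 in the authors' deposited table. In bulk RNA, fewer cells of a type and less RNA per cell cannot be told apart. The part of tuft cells, or of Pou2f3, in the Sult6b2 result was not tested.

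The other sulfotransferases were not called. Sult1b1, which sulfates phenols and thyroid hormones, was at 118 FPKM in WT and 130 in PTBP1_KO, Sult2b1, which sulfates sterols, at 51.2 and 54.4, and Sult1d1 at 39.0 and 36.1. Their p-values in the authors' deposited table were 0.331, 0.614 and 0.450. Sult1c2 was at 1.05 and 0.968 FPKM and Sult1a1, a phenol sulfotransferase, at 0.881 and 0.752, so both were scarce in these samples of either genotype. All 8 Sult2a genes were listed at 0 in both groups, as were 14 of the 21 sulfotransferases. All sulfotransferases, Sult6b2 included, summed to 233 FPKM in WT and 231 in PTBP1_KO.

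Glutathione transfer involved 25 members, of which 23 were tested and none called; 14 were higher and 9 lower in PTBP1_KO, and their sum was 1759 FPKM in WT and 1881 in PTBP1_KO. All 3 microsomal enzymes had higher values in PTBP1_KO. Mgst1, a membrane enzyme that detoxifies lipid peroxides and electrophiles, was at 248 and 258 FPKM, Mgst2, which can make leukotriene C4, at 253 and 302, and Mgst3 at 219 and 264. Their p-values in the authors' deposited table were 0.731, 0.224 and 0.0730. Their summed level was 720 FPKM in WT and 824 in PTBP1_KO, 114% of WT. Among the cytosolic classes, Gsto1, which reduces dehydroascorbate, was the most abundant member at 388 and 407 FPKM, with p = 0.679 in the authors' deposited table. The pi class, which has Gstp1 at its head (209 and 207 FPKM), summed to 245 and 240.2 FPKM. In it Gstp3 was at 23.0 and 17.1 FPKM, with p = 0.0495 and a log2 fold change of -0.42 in the authors' deposited table, and did not pass the adjusted threshold. Gstp2 went the other way in value, at 13.4 and 15.9 FPKM. The mu class summed to 217.8 and 218.3 FPKM, led by Gstm3 at 102 and 106 and Gstm1 at 44.0 and 39.0. Within it, Gstm5 had a higher value in PTBP1_KO (20.2 and 24.4 FPKM), Gstm6 (15.8 and 13.3) and Gstm7 (7.44 and 6.41) lower ones, and Gstm2 differed little (22.8 and 23.7). The theta class summed to 80.8 and 78.2 FPKM, with Gstt2 at 39.2 and 38.4, Gstt3 at 22.5 in both groups and Gstt1 at 19.1 and 17.3. Gstz1, which acts in tyrosine breakdown as maleylacetoacetate isomerase, was at 38.7 and 41.9 FPKM. Gstk1, an enzyme of mitochondria and peroxisomes, was at 15.8 and 19.3 FPKM, with p = 0.136 in the authors' deposited table. In these classes no difference passed the authors' adjusted threshold.

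The alpha class summed to 52.5 FPKM in WT and 52.1 in PTBP1_KO, with its members differing in direction. Gsta1 was at 20.5 and 16.8 FPKM, with p = 0.149 in the authors' deposited table. Gsta4, which conjugates the lipid peroxidation product 4-hydroxynonenal, was at 28.1 and 28.6 FPKM. Gsta3 (ENSMUSG00000025934.15, chr1:21240589-21265661, plus strand) was at 2.92 FPKM in WT and 5.00 in PTBP1_KO, with a log2 fold change of 0.78, p = 0.0146 and q = 0.639 in the authors' deposited table, so it was not called. Gsta2 was at 1.03 and 1.66 FPKM, with p = 0.0788 in the authors' deposited table. Gsta1, Gsta2 and Gsta4 lie within 173 kb on chromosome 9, Gstm genes within 149 kb on chromosome 3 and Gstp genes within 24.2 kb on chromosome 19. Near-identical neighbours can share reads, so the split between single members of these clusters is uncertain.

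Of the 4 reactions, glucuronidation had the most one-sided direction, with 8 of 9 tested members higher in value though none was called. Over all tested genes 54.7% were higher, and the Ugt1a rows, which share exons, are not separate observations. All 19 members summed to 332 FPKM in WT and 357 in PTBP1_KO. Ugt2b34 was the most abundant at 133 and 141 FPKM, followed by Ugt1a1, the bilirubin enzyme, at 90.1 and 97.1 and Ugt1a7c at 62.7 and 67.1. Ugt2a3 was at 22.9 and 26.8 FPKM, Ugt2b35 at 7.41 and 7.95, Ugt2b36 at 3.54 and 4.24 and Ugt1a6a, a phenol enzyme, at 5.24 and 5.57, all with higher values in PTBP1_KO. Ugt2b5 was at 4.00 and 5.42 FPKM, with p = 0.0456 and a log2 fold change of 0.44 in the authors' deposited table. Ugt1a9 was the exception at 2.76 and 2.15 FPKM, with p = 0.870 in the authors' deposited table. The 9 Ugt1a genes share 1 locus (chr1:88055388-88220002) and the same last exons, so how the authors' estimate divided fragments among them is uncertain.

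**Figure D2:**
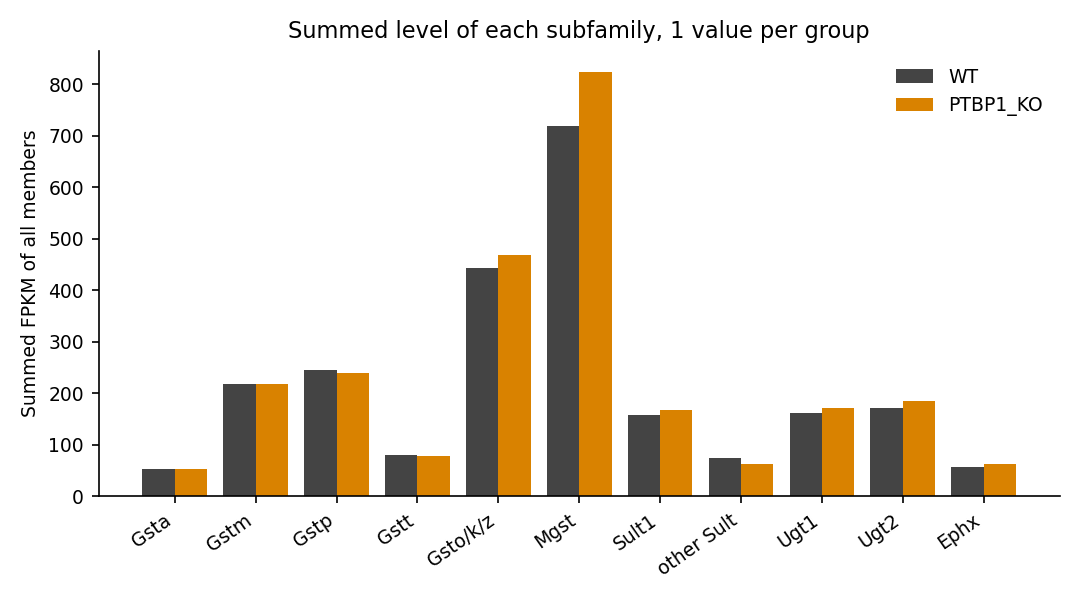
Summed FPKM (vertical axis) of each subfamily in WT and PTBP1_KO, bars from 0, with each bar a sum of the authors' group values and no error. Mgst goes from 720 to 824 FPKM, Sult beyond Sult1 from 74.1 to 62.7 FPKM, and Gstm stays at 217.8 and 218.3 FPKM.

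**Figure D3:**
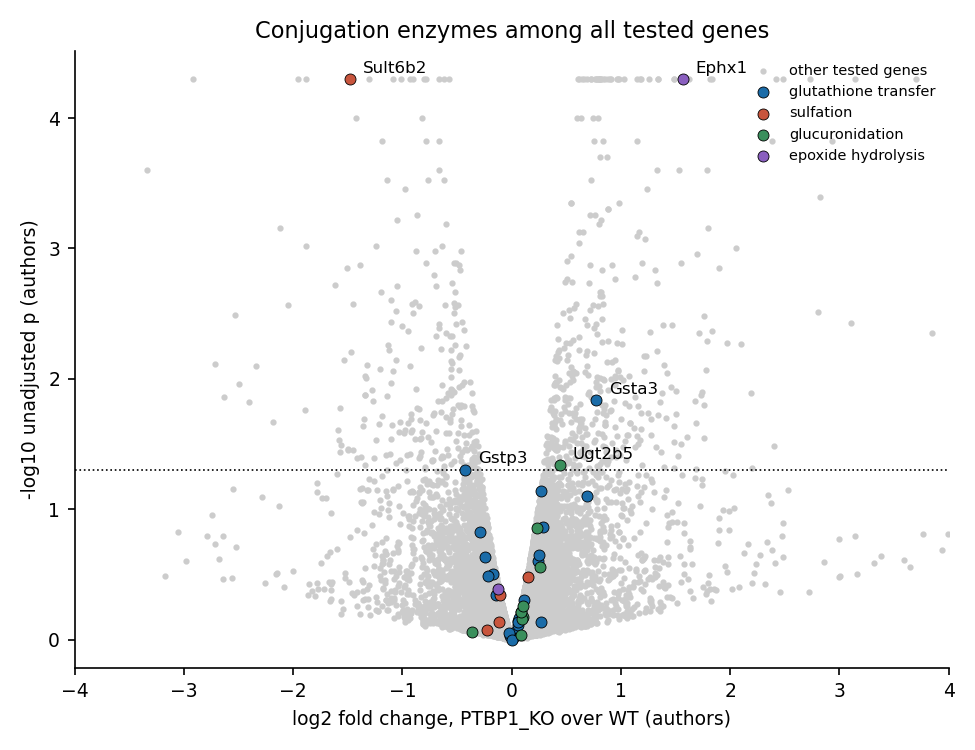
Log2 fold change of PTBP1_KO over WT (horizontal axis) and -log10 of the p-value (vertical axis) from the authors' deposited table, with tested members over all tested genes. Ephx1 and Sult6b2 stand at the top at 1.57 and -1.48, at the smallest Cuffdiff p, 5e-05, which 62 genes share. The 33 tested genes beyond the axis limits or infinite are not shown.

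Splicing of the members was mostly the same in both sets of libraries. The tables hold 113 events in 32 member genes, and 109 of them, in 31 genes, averaged 20 reads or more over the 6 libraries (median 749). Of these, 1 event (0.917%) passed an FDR below 0.05 with a difference of at least 0.1, against 843 of 53918 events in all (1.56%) and 1.68% of skipped exons. The inclusion differences ranged from -0.124 to 0.097, and 106 of 109 were below 0.05 in size. No event was listed under the symbols of 9 tested members, among them Sult6b2 and the 4 tested Ugt1a genes. An 88-nucleotide exon in the part that the Ugt1a genes share (chr1:88215795-88215882) was listed under Ugt1a5, with a mean of 2811 reads, a difference of 0.001 and an FDR of 1 in the authors' deposited table.

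The event that passed is a 140-nucleotide exon of Gsta3 at chr1:21254684-21254823, in 1 of 4 annotated transcripts and upstream of the coding sequence. Inclusion was 6.87, 7.24 and 6.64% in the first set and 26.0, 11.7 and 20.2% in the second. These sets did not overlap, in an event picked for its FDR between them. The authors' deposited table gave a difference of -0.124 and an FDR of 0.00261. Between 29 and 105 reads covered the event in each library. The exact 95% interval of the highest library of the first set, 3.94 to 12.1%, overlapped that of the lowest of the second, 4.22 to 25.0%, and these intervals cover counting error only.

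By number of reads per library, 63, 105 and 65 covered the Gsta3 event in the first set and 44, 29 and 60 in the second.

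In Mgst2, a 100-nucleotide exon (chr3:51664511-51664610) and a 71-nucleotide exon (chr3:51677565-51677635) were listed as mutually exclusive. The event differed by 0.097 with an FDR of 8.05e-05 in the authors' deposited table, just under the required 0.1. Use of the upstream exon was 69.6, 73.3 and 77.8% in the first set and 65.9, 64.6 and 61.0% in the second. The sets did not overlap, and this event too was picked for its FDR between them. The same exon pair spliced to another downstream exon differed by 0.013, with an FDR of 0.176 in the authors' deposited table, and use of the upstream exon there was 95.2, 97.5 and 97.4% in the first set and 95.4, 95.2 and 95.7% in the second, which overlap. As a cassette, the upstream exon was skipped by 0 to 8 reads against 3154 to 5495 that include it, and the 71-nucleotide exon was included at 95.6 to 97.2%, with an FDR of 0.528 in the authors' deposited table. In its other cassette event inclusion was 98.8 to 100%, with an FDR of 1 in the authors' deposited table. Each exon was thus included by nearly all reads of its cassette events, so the percentages of the listed pair are not shares of alternative transcripts. The 71-nucleotide exon matters for the protein because its length is no multiple of 3. GENCODE gives 147 codons with it and 77 in the 1 of 9 transcripts without it, where the reading frame meets the stop codon in capitals in the following exon.

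Mgst2 exon 3 (chr3:51677565-51677635, plus strand): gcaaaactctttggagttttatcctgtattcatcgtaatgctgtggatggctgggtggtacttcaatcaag

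Mgst2 exon 4 (chr3:51681797-51681878, plus strand): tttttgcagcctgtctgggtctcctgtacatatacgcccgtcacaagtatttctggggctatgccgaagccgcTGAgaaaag

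**Figure D4:**
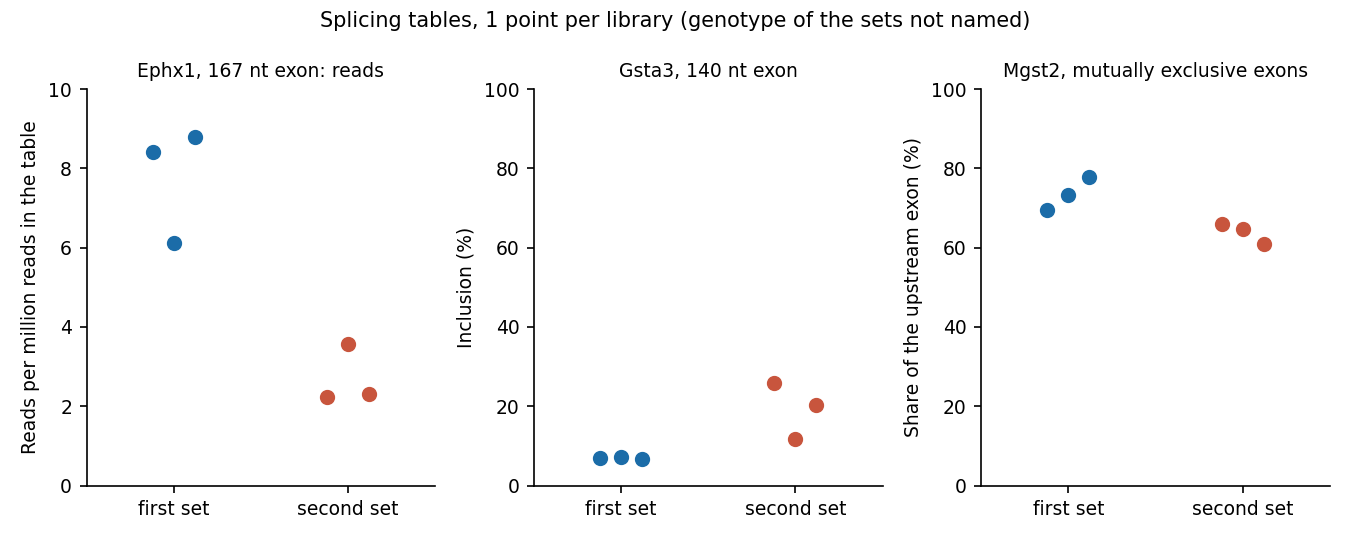
Values in each of the 6 libraries for Ephx1 reads, Gsta3 exon inclusion and the Mgst2 exon pair, with the first and second set of libraries on the horizontal axis, whose genotype the headers do not name. In all 3 panels the points of the sets are apart, for instance 6.64 to 7.24% against 11.7 to 26.0% for Gsta3. The panels were picked for low p-values in these same libraries, so this separation is no separate support. The share of all events with sets apart is not given here.

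In other genes, the smallest p-values belonged to events with small differences. An 82-nucleotide exon of Sult2b1 (chr7:45758812-45758893) differed by 0.017 with an FDR of 0.0973, an 8-nucleotide exon of Gstt3 (chr10:75775490-75775497) by 0.018 with an FDR of 0.154, and a 111-nucleotide exon of Gsta2 (chr9:78342487-78342597) by 0.047 with an FDR of 0.568, in the authors' deposited table.

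No gene listed around the conjugation step was called. Of 128 genes in 10 lists of neighbouring functions, 19 were in 2 or more lists. In all, 112 were tested and 0 passed q below 0.05 in Cuffdiff, with 7 at an unadjusted p below 0.05 (6.25%, 4 higher and 3 lower). Over all tested genes, 0.537% were called and 4.35% had an unadjusted p below 0.05, so 0 called is near the general share. The lowest q was 0.345. Among oxidation and reduction enzymes, 15 of 28 were higher and 13 lower in value. Akr1b8, an aldose reductase relative, was at 6.62 and 10.1 FPKM with p = 0.00475, and Adh1, an alcohol dehydrogenase, at 117 and 89.6 with p = 0.0105 in the authors' deposited table. Among 18 genes of glutathione synthesis and recycling, 13 were higher in value, with glutathione reductase Gsr at 132 and 167 FPKM and p = 0.0318 in the authors' deposited table. H6pd, which supplies NADPH in the endoplasmic reticulum, was at 4.81 and 6.31 FPKM with p = 0.0176, and Cbs, which feeds cysteine synthesis, at 1.48 and 0.728 with p = 0.0213 in the authors' deposited table. Among 13 genes of cofactor supply, Papss2, which makes PAPS, was at 94.8 and 72.1 FPKM with p = 0.0271 in the authors' deposited table, and Ugdh, which makes UDP-glucuronic acid, was at 71.8 and 87.0 with p = 0.381.

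Of 17 tested regulators of these enzymes, 8 were higher and 9 lower in value and none was called. The smallest p among them was that of the vitamin D receptor Vdr, at 97.1 and 81.2 FPKM (p = 0.126 in the authors' deposited table). Nfe2l2, the gene of Nrf2, was at 128 and 125 FPKM with p = 0.796 in the authors' deposited table, Keap1, its inhibitor, at 31.9 and 31.7, the xenobiotic receptor gene Nr1i2 at 36.3 and 36.2, and Ahr at 2.82 and 2.68. Of 20 tested textbook Nrf2 targets outside the members, 18 were higher and 2 lower in value, at a median log2 ratio of 0.09 and with 0 called. Of all tested genes, 54.7% were higher. Gsr, Gclm, Gclc and G6pdx were also counted in the glutathione list, so both counts share genes. Nqo1 was at 18.7 and 21.9 FPKM with p = 0.167 in the authors' deposited table. Textbook PXR and CAR targets split 5 higher and 5 lower in value, with Cyp3a13 at 78.7 and 96.1 FPKM and p = 0.0731 in the authors' deposited table. Cyp1a1, the classic Ahr target, was at 0.843 and 0.541 FPKM with p = 0.0609 in the authors' deposited table. The 9 tested efflux transporters were also divided: 4 were higher and 5 lower in value, with Abcc4 at 1.33 FPKM in PTBP1_KO (log2 fold change 0.41 and p = 0.0830 in the authors' deposited table) and Abcc6 at 3.16 and 2.34 FPKM (p = 0.0963). Of 5 hydrolases that undo conjugation, 4 were higher in value, and of 6 other conjugating enzymes 4 were, with 0 called in these 3 lists.

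**Figure D5:**
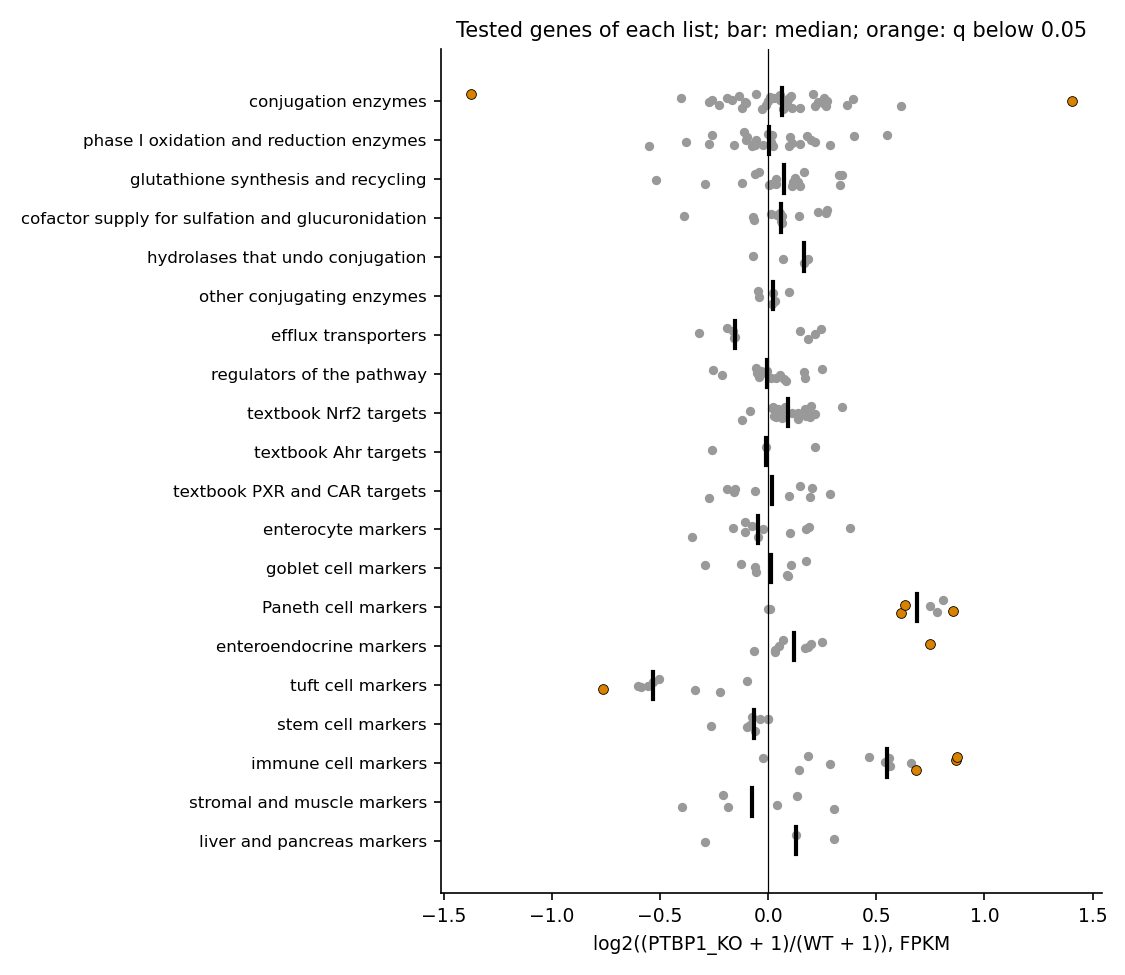
Log2((PTBP1_KO + 1)/(WT + 1)) of the tested genes of each list (horizontal axis), with a bar at the median of each list and orange points for q below 0.05, which among the conjugation enzymes are Ephx1 and Sult6b2. Tuft cell markers lie below 0 with a median of -0.53, and Paneth and immune cell markers have medians of 0.69 and 0.55. The lists around conjugation have medians from -0.15 (efflux transporters) to 0.17 (hydrolases that undo conjugation).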

How the data were processed

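Messenger RNA of 3 WT and 3 PTBP1_KO libraries was sequenced from a stranded kit, per the labels' protocols, and samples were grouped by title. The submitters' processing notes name bcl2fastq 2.20 and Trimmomatic 0.38, then STAR 2.6.1d with the mm10 build, and Cuffdiff with Cufflinks. The version and settings of the splicing caller are not given in the sources used here. The authors deposited 1 FPKM value per group and gene, with a log2 fold change, a p-value, a q-value and a test score. No library value is in the gene table, so its depth is unknown and no test was rerun. Benjamini-Hochberg adjustment of the deposited p-values over tested genes gave the same q-values to within 5.01e-07. The splicing tables hold reads, an inclusion level difference (a score), a p-value and an FDR computed by the authors, per the file headers. Summed over its events, the skipped-exon table holds 32226951 to 39774266 reads per library. A read can count in more than 1 event, so these sums are not library depths. The tables' own inclusion levels (10 columns) went unused, and inclusion was computed from the reads.

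A gene was called at q below 0.05, and an event at FDR below 0.05 with a difference of at least 0.1 and a mean of at least 20 reads. Ratios used a pseudocount of 1 FPKM. Named genes were members with q or p below 0.05, the 3 highest of each subfamily with at least 1 FPKM, the 6 largest rises and falls, and the splicing events and list genes with the lowest p. The members and lists were chosen with earlier results of these data known, and 1 cell type marker is not reported here. Alternatives were other thresholds, pseudocounts, minimum levels, centring and coverage. The scripts were tested on simulated data. Coordinates are 1-based on mm10 with GENCODE M21, promoters are from RefSeq (GRCm38.p6), and 8 members had no promoter entry used here. Computation used Python 3.11.15 with pandas 2.3.3, numpy 2.4.6 and scipy 1.17.1, and plots used matplotlib 3.10.9.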

Additional observations from a re-analysis of the deposited data

How the results depend on the processing

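Of 57 alternative values, 51 kept their direction and their size within the set bounds, and 6 did not. Many of these could hardly move. The minimum of 1 FPKM kept 39 of the 40 tested members, and centring shifted each median by 0.02 against a bound of 0.1. The count of 51 is therefore no measure of robustness. The count of called members was 2, and it was 0 at q below 0.01, because the lowest q in the table is 0.0125, and 5 at an unadjusted p below 0.05. The alpha class median log2 ratio of 0.21 was 0.33 with a pseudocount of 0.1 FPKM. The mu class median of 0.01 (0.0063) became -0.0103 when ratios were centred on the median of all tested genes. The count of called splicing events was 1, and it was 2 with a difference of at least 0.05 and 0 with a difference of at least 0.2. No paired analysis was possible because the gene table has 1 value per group and the splicing headers name neither genotype nor replicate. Leaving out replicates was not run for the same reason. Levels carry no replicate error, and the depth behind FPKM is unknown, so small differences between members cannot be judged beyond the authors' test. Beyond the q threshold, the cause of these shifts was not tested.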
